A study of Mus musculus with 10 samples.

Results

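The nuclear-encoded subunits of the 5 complexes of oxidative phosphorylation were measured on spotted cDNA arrays in M-1 cells, which derive from the cortical collecting duct of a mouse. The members were all spotted clones that the array annotation pairs with a single gene symbol starting with Nduf, Cox4 to Cox8, Atp5 or Uqcr, or equal to Sdha, Sdhb, Sdhc or Sdhd. The rule found 87 clones of 62 genes among 15600 clones, each printed as 2 spots, so 174 of 31200 spots. Another 2 clones whose annotation joins several symbols were left out. The annotation has a row for 10140 clones, and the others are unnamed here. Complex I had 29 clones of 27 genes, complex II had 5 of 4, complex III had 8 of 5, complex IV had 16 of 10 and complex V had 29 of 16. The prefix also takes in proteins that are not subunits. Ndufaf1, Ndufaf3, Ndufaf4 and Ndufaf6 are assembly factors of complex I, Ndufs5-ps is a pseudogene, and Cox7a2l joins complexes into supercomplexes.

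Confluent cells of this line, whose donor mouse carried a viral T antigen, had been kept in medium nominally free of steroid. Treated cells then received 100 nM dexamethasone, a synthetic glucocorticoid, for 3 h, and control cells received steroid-free medium for the same time. The 10 channels formed 5 pairs. In control pairs 1 and 2 both dyes, Cy3 and Cy5, carried control RNA, and in dexamethasone pairs 1, 2 and 3 Cy5 carried RNA of treated cells and Cy3 carried control RNA. The dyes were never swapped, so dye and treatment cannot be told apart within a treated pair, and control and treated pairs lay on different arrays. Groups follow the titles, although 5 of the 7 channels with a control title have a treatment text that speaks of dexamethasone. Nothing in the labels says whether pairs came from separate cultures, so a p-value measures only the spread between these pairs, which may be technical. In RNA from whole cultures, fewer cells of a kind and less RNA per cell cannot be told apart.

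Values were listed for 31022 and 30942 spots in the control pairs, but for only 3778, 3994 and 4002 spots on the treated arrays. The treated arrays held no ratio near 1: after centring, the smallest log2 ratio of Cy5 to Cy3 was 0.29, 0.48 and 0.27 in size. An absent value on those arrays therefore says nothing about the level of a transcript, and a listed spot is one whose ratio was outlying on that array. The 15 clones of collecting duct and epithelial markers had a median percentile of spot brightness of 97.7 in the control pairs, and 3 lay below the 50th. The keratin Krt18 reached the 99.1st and the adhesion molecule Epcam the 97.9th, whereas the clones of Cdh1, the epithelial cadherin, were at 16.2 and 29.6 and that of Slc4a1, an anion exchanger of intercalated cells, at 36.4. Aqp2 and the Scnn1 sodium channel genes had no named clone. The 2 clones of endothelial genes lay near the 23.8th percentile, the 1 leukocyte clone at the 32.4th and the 2 clones of Lrp2, a proximal tubule gene, had a median of 12.6. The 11 fibroblast and matrix clones had a median of 46.9 and reached 86.5 for a clone of Dcn, a matrix proteoglycan, with 3 spots listed higher and 2 lower on the treated arrays, and their part in the results was not tested. The precision of all values is limited by the number of arrays.

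Complexes I to IV form the respiratory chain of the inner mitochondrial membrane. Complex I takes electrons from NADH and complex II, which is also an enzyme of the citric acid cycle, takes them from succinate. Complex III passes them through cytochrome c to complex IV, which reduces oxygen. Complex V, the ATP synthase, uses the proton gradient built by complexes I, III and IV to make ATP. In the renal collecting duct the ATP feeds, among other work, the sodium pump that drives salt uptake, which corticosteroids regulate. Many nuclear genes of these complexes carry sites for nuclear respiratory factor 1 (NRF-1) and for ETS factors such as GABP in their promoters. Glucocorticoids act through a receptor that binds its own palindromic element.

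Promoter sequences are shown because shared promoter letters are a property that the choice of clones did not use. RefSeq promoters on GRCm38.p6, reaching from 250 bases before to 50 bases after the start site, were found by gene ID for 51 of the 62 genes, which gave 55 promoters. An NRF-1 site, searched on both strands as GCGCA and GCGC with 1 free base between them, occurred in 12 of the 55 promoters (21.8%), against 4.6% of all 32851 promoters and 6.38% of those of protein-coding genes. By complex, 3 of 23 genes of complex I carried it, 2 of 3 of complex II, 1 of 3 of complex III, 1 of 8 of complex IV and 5 of 14 of complex V. The ETS core CGGAAG, searched on both strands, occurred in 28 of the 55 promoters (50.9%), against 16.9% of all promoters and 21.1% of the protein-coding ones. The glucocorticoid response element, written as GNACA and TGTNC with 3 free bases between them and searched on both strands, occurred in 0 of the 55, against 0.475% of all promoters, which says only that the letters are not in this window. Both NRF-1 and ETS letters occurred in 6 of the 55 promoters, and 0 of their matches shared a base. Printed here, 5′ to 3′ in the direction of the gene and ending at the base before the start site, are the promoters of Sdha (chr13:74350241-74350490, minus strand), which held the most NRF-1 matches, of Cox6a1 (chr5:115348959-115349208, minus strand), which like that of Uqcrc1 held 2, and of Uqcr11 (chr10:80406822-80407071, minus strand), whose clone was listed on 2 treated arrays. Capitals mark the 3 NRF-1 matches of Sdha, which begin 98, 55 and 10 bases before the start site, the 2 of Cox6a1, which begin 162 and 117 bases before it, and the ETS core of Uqcr11, which begins 65 bases before it.
Sdha: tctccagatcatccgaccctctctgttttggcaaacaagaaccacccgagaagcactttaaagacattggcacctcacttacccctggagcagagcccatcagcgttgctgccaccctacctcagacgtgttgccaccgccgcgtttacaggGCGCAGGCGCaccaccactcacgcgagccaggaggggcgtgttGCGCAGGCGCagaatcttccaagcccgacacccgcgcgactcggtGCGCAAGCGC
Cox6a1: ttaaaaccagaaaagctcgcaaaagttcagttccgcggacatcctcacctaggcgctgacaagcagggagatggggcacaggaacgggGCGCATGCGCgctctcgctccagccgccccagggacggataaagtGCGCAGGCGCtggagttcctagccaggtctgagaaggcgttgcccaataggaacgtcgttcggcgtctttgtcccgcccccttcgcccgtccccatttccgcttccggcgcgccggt
Uqcr11: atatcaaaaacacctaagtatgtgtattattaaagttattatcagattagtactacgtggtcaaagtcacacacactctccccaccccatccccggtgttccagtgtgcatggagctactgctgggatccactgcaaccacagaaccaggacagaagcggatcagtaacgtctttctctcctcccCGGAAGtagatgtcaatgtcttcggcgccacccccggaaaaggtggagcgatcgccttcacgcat
The 3 matches in the Sdha promoter lie in its last 98 bases, while the matches of Cox6a1 lie farther upstream. A match of letters is a description of the promoter, and binding was not measured.

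Baseline brightness was compared between complexes in the 4 channels of the control pairs, which list nearly all spots. Each clone was ranked among all clones of its channel, and its 4 percentiles were averaged. The subunit clones were among the brighter spots of the arrays: their median percentile was 90.0, and 68 of 87 (78.2%) lay above the 75th percentile, against 20.5% of all clones. Complex I had the lowest median percentile, 84.9 ± 2.29 (SD of the medians of the 4 channels), and complex II followed with 90.2 ± 0.706. Complex III had a median percentile of 92.4 ± 0.966, complex V of 93.2 ± 1.54 and complex IV of 94.3 ± 0.398. The channels of 1 array share their spots, so these SDs describe 4 channels of 2 arrays.

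The order of the complexes held in part from channel to channel. Complex I had the lowest median in each of the 4 channels, at 87.7 and 87.9 in control pair 1 (Cy3 and Cy5) and 83.6 and 84.2 in control pair 2. Complex II came next in all 4, between 88.5 and 90.2. The upper 2 complexes did not keep their order: complex V led in control pair 1, with 95.0 and 95.2 against 94.6 and 94.7 for complex IV, and complex IV led in control pair 2, with 95.3 and 95.4 against 92.2 and 92.8 for complex V. Complex III had the third lowest median in all 4 channels, between 91.7 and 94.0. The order I, II, III was thus the same in every channel, and only complexes IV and V swapped places between the arrays.

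**Figure D1:**
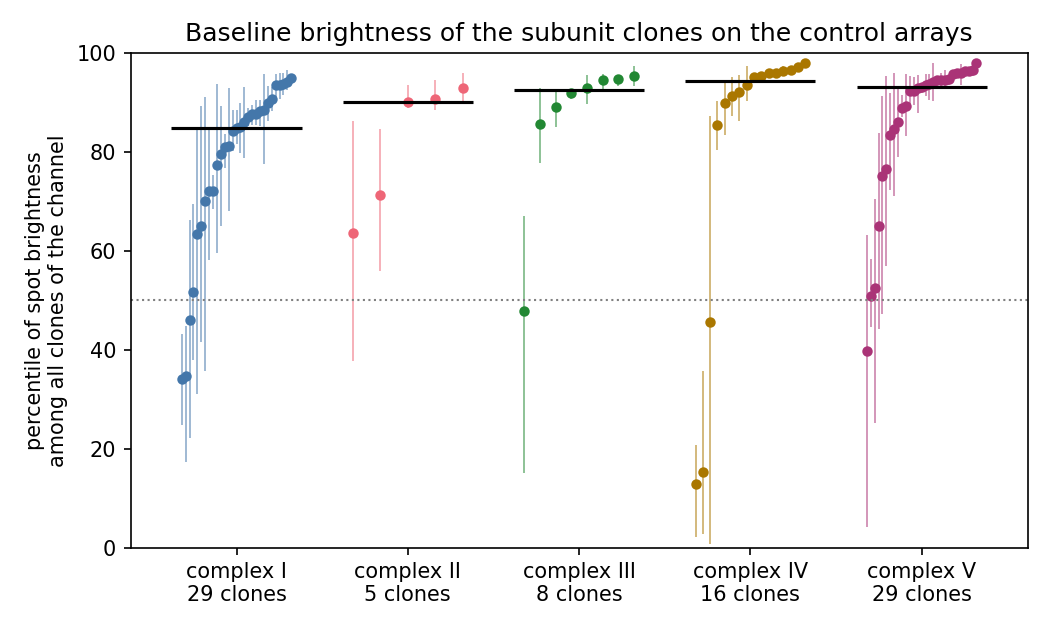
Percentile of spot brightness among all clones (vertical axis, percent) for each of the 87 clones, ordered within complexes I to V. Points are means over the 4 channels of the control pairs, thin lines run from the lowest to the highest channel, and black bars are medians over clones: 84.9, 90.2, 92.4, 94.3 and 93.2. Most clones crowd near the top, and complexes I, III, IV and V have 3, 1, 3 and 1 clones below the 50th percentile (dotted line), complex II none.

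Within each complex the clones spread far more widely than the complexes did. In complex I the brightest clone was Ndufv2, a subunit of the NADH dehydrogenase module, at the 94.9th percentile, with intensities of 1673 (Cy3) and 1947 (Cy5) in control pair 1 and 6460 and 6610 in control pair 2. The dimmest was the assembly factor Ndufaf1, at 34.0, with 454.5 and 263 in control pair 1 and 765.5 and 885.5 in control pair 2. Ndufv2 was brighter than Ndufaf1 in all 4 channels. Complex I had 3 clones below the 50th percentile and 20 of 29 above the 75th.

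Complex II had 5 clones. The brightest was Sdhc, a membrane anchor of the complex, at the 92.9th percentile, with intensities of 1040.5 and 1135.5 in control pair 1 and 8398.5 and 6285.5 in control pair 2. Sdhb, the iron-sulphur subunit, lay at 90.2 and the other membrane anchor, Sdhd, at 71.2. Sdha, the flavoprotein that oxidises succinate, had a clone at 90.7 (clone 628) and another at 63.5 (clone 10967). Clone 10967 was at the 86.2nd and 85.4th percentiles in control pair 1 but at the 44.8th and 37.7th in control pair 2, so the same spots changed rank between arrays.

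In complex III the brightest clone was Uqcrb (clone 3141), a small subunit near the ubiquinone site, at the 95.4th percentile, with intensities of 2987.5 and 3580.5 in control pair 1 and 5497 and 4179.5 in control pair 2. The dimmest was a clone of Uqcrc1 (clone 8291), a core protein, at 47.8, with 381 and 339.5 in control pair 1 and 982.5 and 1328 in control pair 2. The remaining 7 clones of complex III all lay above the 75th percentile. In complex IV the brightest clone was Cox4i1 (clone 3953), the common form of the largest nuclear-encoded subunit, at 97.9, with 3605.5 and 5011 in control pair 1 and 18102.5 and 12523.5 in control pair 2. Its dimmest were a clone of Cox8a (clone 4704) at 12.8 and Cox6b2, the testis form of subunit VIb, at 15.2. The somatic form Cox6b1 was at 96.5.

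The brightest of all 87 clones belonged to complex V. Atp5md, a small subunit of the membrane sector that was found with ATP synthase dimers, lay at the 98.0th percentile, with intensities of 3859 and 4627 in control pair 1 and 19607 and 13436.5 in control pair 2. The dimmest clone of the complex was Atp5g3 (clone 13872), which encodes the subunit c of the rotor ring, at 39.7, with 535.5 and 360.5 in control pair 1 and 354.5 and 921.5 in control pair 2. In complex V 25 of 29 clones lay above the 75th percentile, and 1 lay below the 50th.

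Brightness belongs to the spotted cDNA as well as to the transcript, as clones of 1 gene show. Of the 62 genes, 19 had more than 1 clone, and their clones differed by a median of 21.4 percentile points, from 0.602 for Uqcrb to 83.6 for Cox8a, whose clones lay at 12.8 and 96.4. The medians of the 5 complexes spanned 9.40 points, and the clones of 10 of the 19 genes differed by more than that. The 4 clones of Atp5a1, the alpha subunit of the catalytic head, lay between 52.5 and 86.1, and the 3 of Atp5b, the catalytic beta subunit, between 75.1 and 96.6. The 3 clones of Atp5c1, the central stalk gamma subunit, lay close together between 92.3 and 95.7, as did the 4 clones of Cox4i1 between 92.1 and 97.9. Cox7c, a small subunit of complex IV, had clones at 45.6 and 95.1. Its dim clone was at the 85.0th and 87.3rd percentiles in control pair 1 and at the 9.2nd and 0.8th in control pair 2. Differences in brightness between complexes therefore give no order of their transcripts.

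**Figure D2:**
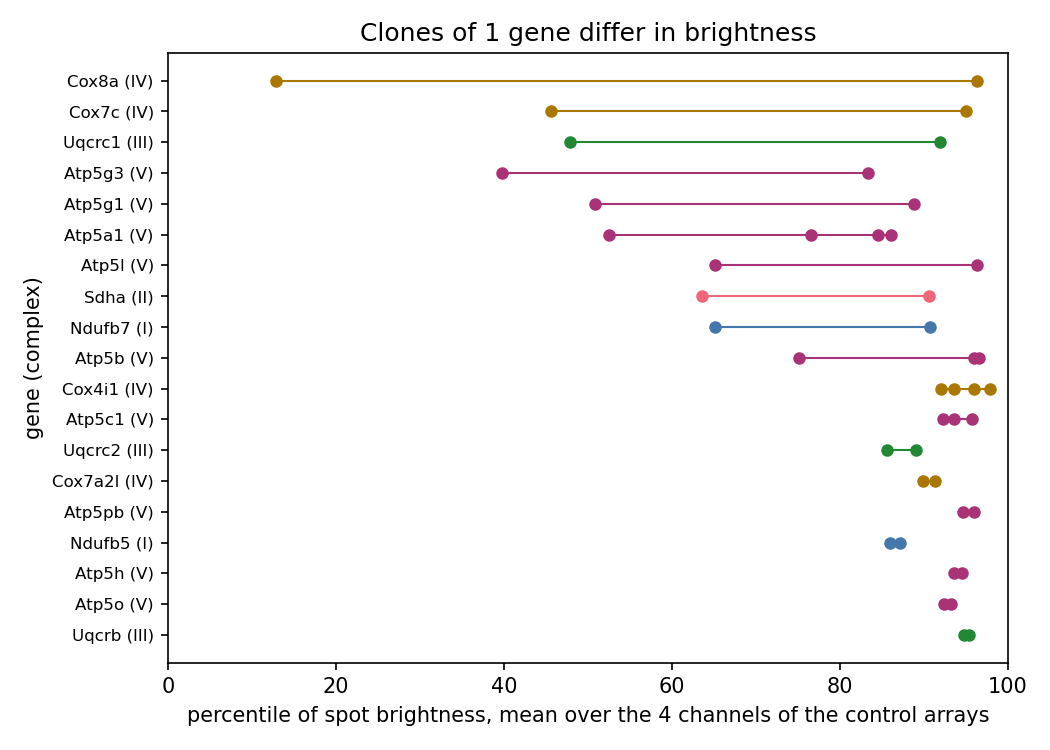
Percentile of spot brightness (horizontal axis, mean over the 4 channels of the control pairs) for each clone of the 19 genes with more than 1 clone, 1 row per gene with its complex. Lines join the clones of a gene: those of Cox8a are 83.6 points apart, those of Uqcrb 0.602.

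The control pairs show how ratios of these clones behave without treatment. With control RNA in both dyes, centred log2 ratios of the 87 clones ran from -0.68 to 0.61 in control pair 1 and from -0.85 to 0.75 in control pair 2, with an SD over clones of 0.27 and 0.31. The median gap between both spots of a clone was 0.17 and 0.16, smaller than over all clones (0.25 in each pair). The deviations of the subunit clones had the same sign in both control pairs for 62 of 87 clones (71.3%), against 8586 of 15561 of all clones (55.2%) and 58.7% of the brightest 25% of all clones. Across the 87 clones the ratios of the pairs correlated at r = 0.347 (Spearman's rho 0.381), against r = 0.149 over all clones. Among the brightest 25% of all clones r was 0.217, and for the 72 subunit clones in that part it was 0.347. These clones share the arrays, the dyes and the RNA of a pair and are not independent replicates. Median ratios by complex lay between -0.08 and 0.17 in control pair 1 and between -0.11 and 0.18 in control pair 2. Complex IV had the highest median in control pair 1 (0.17) and complex V in control pair 2 (0.18), both above the medians of the same complexes in the other pair (0.02 and -0.03).

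**Figure D3:**
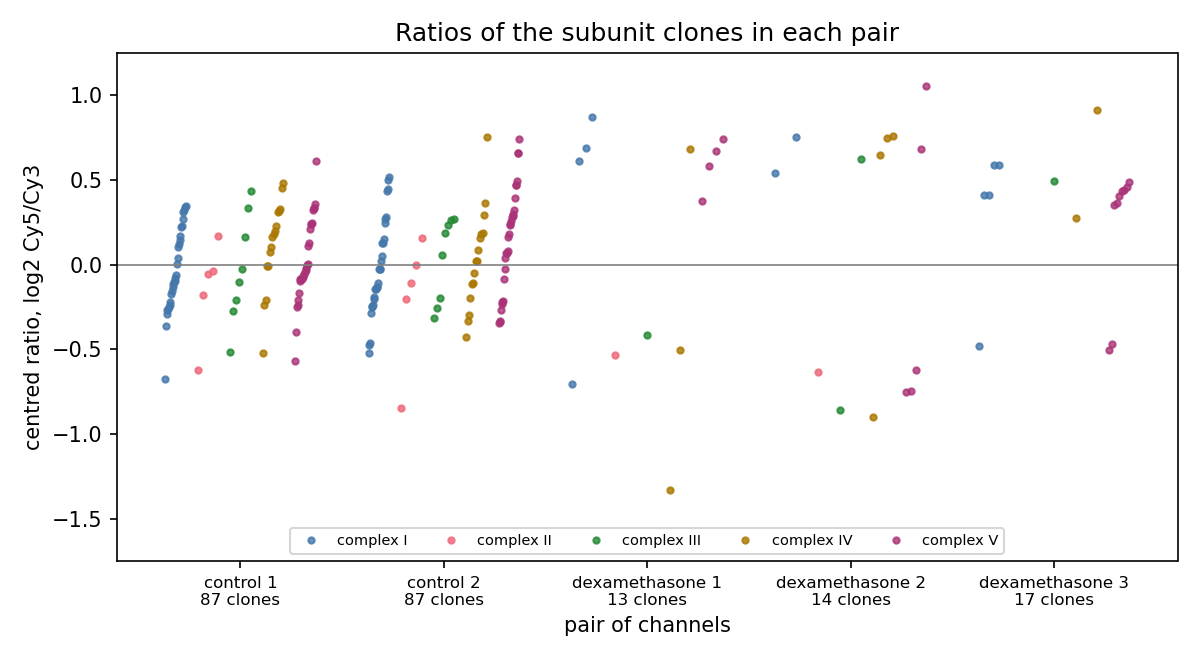
Centred log2 ratio of Cy5 to Cy3 (vertical axis) of each clone in the 2 control pairs and the 3 dexamethasone pairs, coloured by complex and ordered by value within it. All 87 clones have a value in each control pair, whereas 13, 14 and 17 have one in the dexamethasone pairs, where no value lies near 0.

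Directions of listed spots on the treated arrays were set against the control pairs. To give the control pairs the same yardstick, the same share of their spots (12.6%) was counted as outlying among spots of like brightness. On the treated arrays the subunit clones had 32 spots listed higher with dexamethasone and 19 listed lower, of 522 spots printed on 3 arrays. Those were 6.13% and 3.64% of the spots, where all clones had 6.36% listed higher and 6.22% listed lower. In the control pairs, where no treatment separates the dyes, 24 spots of the same clones were outlying higher and 11 lower, of 348. Those were 6.90% and 3.16%, where all clones had 6.01% and 6.53%. Higher spots thus outnumbered lower ones in both kinds of pair, making up 62.7% of the listed spots on treated arrays and 68.6% of the outlying ones in control pairs, against 50.6% and 47.9% over all clones. With 1 clone per gene, the brightest, 20 were higher and 16 lower on the treated arrays, and 9 and 9 in the control pairs. That rule leaves out the dimmer clones of a gene, so it changes brightness as well as the number of clones. No share over all clones under the same rule is given. The subunit clones were listed somewhat less than all clones on the treated arrays (9.77% against 12.6% of spots), a share given as a description since clones are not replicates.

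The arrays did not behave alike. The subunit clones had 9 spots listed higher and 6 lower in dexamethasone pair 1, where all clones had 6.38% higher and 5.73% lower. In dexamethasone pair 2 they had 8 of each, where all clones had 6.17% higher and 6.63% lower. In dexamethasone pair 3 they had 15 higher and 5 lower, where all clones had 6.53% higher and 6.3% lower. The control pairs had 8 higher and 6 lower in pair 1, and 16 higher and 5 lower in pair 2. For higher spots the treated arrays lay within the range of the control pairs, between 8 and 16. For lower spots dexamethasone pair 2, with 8, lay above both control pairs, and pairs 1 and 3 equalled them, with 6 and 5.

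By complex, complex I had 10 spots listed higher and 2 lower of 174 on the treated arrays, and 5 and 3 of 116 in the control pairs. Complex II had 0 higher and 2 lower of 30, and 0 and 3 of 20 in the control pairs. Complex III had 2 higher and 4 lower of 48, and 1 and 1 of 32 in the control pairs. Complex IV had 6 higher and 4 lower of 96, and 6 and 2 of 64 in the control pairs. Complex V had 14 higher and 7 lower of 174, and 12 and 2 of 116 in the control pairs. Complexes I, IV and V leaned to higher and complex II to lower in both kinds of pair, and only complex III leaned to lower on the treated arrays with no lean in the control pairs. These leans rest on few clones. The 4 lower spots of complex III were all of Uqcr11 (clone 954), and the 2 of complex II were of Sdha (clone 628). Without its assembly factors, complex I had 4 higher and 2 lower on the treated arrays, and 4 and 3 in the control pairs. No test was made of these counts, because clones of 1 array are not replicates of a condition.

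**Figure D4:**
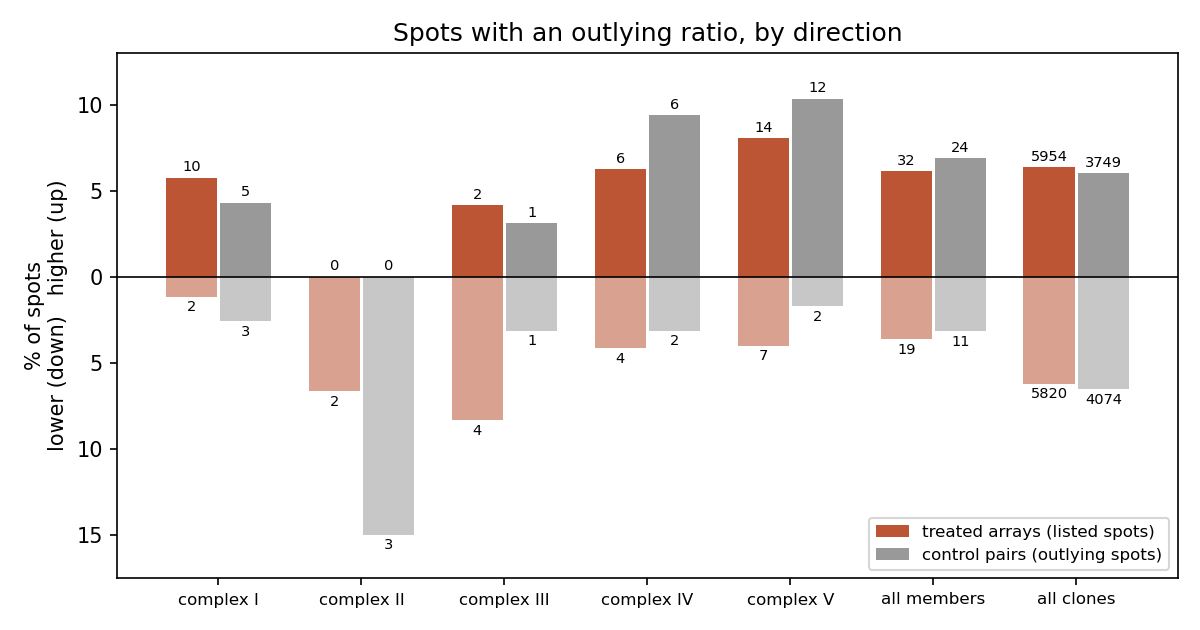
Share of spots with an outlying ratio (vertical axis, percent; higher drawn upward, lower downward) in complexes I to V, in all 87 clones and in all 15600 clones. Red bars are spots listed on the treated arrays, grey bars spots outlying in the control pairs, and numbers on the bars count spots: complex V has 14 higher and 7 lower on treated arrays beside 12 and 2 in the control pairs.

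A division by brightness, chosen after the values were seen, separated the directions further. The 72 subunit clones in the brightest 25% of all clones had 18 spots listed higher and 18 lower on the treated arrays (4.17% each), where all clones of that brightness had 6.59% higher and 5.08% lower. The 15 dimmer ones had 14 listed higher and 1 lower (15.6% and 1.11% of 90 spots), the latter a single spot of Cox8a (clone 4704). In the control pairs the same 15 clones had 6 outlying higher and 1 lower (10.0% and 1.67% of 60 spots). All clones outside the brightest 25% had 6.14% and 6.64% there. The 72 had 18 and 10 (6.25% and 3.47% of 288 spots), where all clones of that brightness had 5.60% and 6.19%. Over all clones outside the brightest 25% the treated arrays listed 6.28% of spots higher and 6.60% lower. The 4 assembly factors of complex I, each listed higher on at least 1 treated array, held 6 of its 10 higher spots, and in the control pairs they had 1 outlying higher and 0 lower.

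Counted by clone, 35 of 87 subunit clones had at least 1 listed spot on a treated array, where 51.8% of all clones did. A total of 26 were listed on 1 array, 9 on 2 arrays and 0 on all 3. The 9 were 10.3% of the members, where 13.7% of all clones were listed on at least 2 arrays. Of the 9, 4 had all listed spots higher, where 4.21% of all clones did, 3 had all lower, where 4.2% did, and the other 2 went both ways. Both spots of a clone were listed in 7 of 44 cases (15.9%), against 12.8% over all clones, so most listed values rest on 1 of the 2 spots. Where both spots were required, the subunit clones had 4 spots higher and 10 lower on the treated arrays, and 8 and 4 in the control pairs. The lean on the treated arrays was then to lower, but it rests on few clones. The lower spots were of Uqcr11 (clone 954), Cox7a2 (14853), Atp5b (15187) and Atp5a1 (15334), and the higher ones of Ndufaf3 (6133) and Atp5md (5453). No share over all clones under the same rule is given.

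Levels with and without dexamethasone were tested with limma on 2131 clones that had a ratio in both control pairs and in at least 2 treated pairs. Of these, 0 passed an adjusted p of 0.05 (0% higher and 0% lower); 13.5% were higher and 12.4% lower at an unadjusted p under 0.05. The 9 subunit clones listed on 2 arrays entered this fit, none had an adjusted or an unadjusted p under 0.05 in limma, and the adjusted p ran from 0.196 to 0.959. Their median difference, treated minus control, was -0.10 on the log2 scale, with 3 of 9 above 0, against a median of 0.02 and 51.0% above 0 over all clones fitted. Every treated ratio lay above both control ratios in 3 clones, where 28.5% of all clones fitted did, and below both in 3, where 27.4% did. For the 9 clones each control ratio is a mean of 2 spots, while many treated ratios rest on 1. For the listed spot of Atp5b (clone 8362), counted as below, the treated ratios lay on both sides of its own control ratios. The treated arrays list outlying ratios alone, so a clone entered the fit only through ratios far from 0. The directions also rest on the ratio of the dyes: with the channels fitted apart and no replicate block, 7 of the 9 differences had the opposite sign.

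Among the clones of complex I, 1 entered the fit. Ndufaf3, an assembly factor (clone 6133), had log2 ratios of 0.11 and 0.44 in control pairs 1 and 2, and of 0.87 in dexamethasone pair 1 and 0.59 in pair 3. Both treated values lay above both control values. The limma difference was 0.46 with an SE of 0.25 and an adjusted p of 0.303, and the clone had no value in dexamethasone pair 2. The other 9 listed clones of complex I were listed on 1 array each. The assembly factors Ndufaf1 (0.61) and Ndufaf6 (0.69) were listed higher in dexamethasone pair 1 and Ndufaf4 (0.59) in pair 3. Ndufv1, which binds NADH, was at 0.54 in pair 2, its partner Ndufv2 at 0.41 in pair 3 and Ndufb10 of the membrane arm at 0.41 in pair 3. Ndufb10 had 0.32 and 0.45 in the control pairs, so its treated ratio lay between them. The pseudogene Ndufs5-ps was at 0.75 in pair 2, against 0.15 in each control pair. Lower ratios came from Ndufs3, a core subunit of the peripheral arm, at -0.48 in pair 3, and from 1 of the 2 clones of Ndufb5 at -0.70 in pair 1. The remaining 19 clones of complex I had no listed spot.

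In complex II the bright clone of Sdha (clone 628) was the 1 listed clone. Its log2 ratios were -0.18 and -0.85 in the control pairs, and -0.53 and -0.63 in dexamethasone pairs 1 and 2. The treated values lay between the control values, and the limma difference was -0.07 (SE 0.31, adjusted p 0.959). In complex III, Uqcr11, the smallest subunit (clone 954), had -0.27 and -0.26 in the control pairs, and -0.42 and -0.86 in dexamethasone pairs 1 and 2, with both spots listed each time. Both treated values lay below both control values, and the limma difference was -0.37 (SE 0.25, adjusted p 0.411). Its intensities were 1967.5 (Cy3) and 2128.5 (Cy5) in control pair 1, 3828.5 and 2850.5 in control pair 2, 16465 and 12681 in dexamethasone pair 1, and 3591 and 2219.5 in dexamethasone pair 2. The spots were thus bright on every array where they had a value, and brightness itself differed more between those arrays than between dyes. They had no value in dexamethasone pair 3.

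The dim clone of the core protein Uqcrc1 (clone 8291) had log2 ratios of 0.43 and 0.27 in the control pairs, and 0.62 and 0.50 in dexamethasone pairs 2 and 3. The treated values lay above the control values by a small margin, and the limma difference was 0.21 (SE 0.20, adjusted p 0.622). The bright clone of Uqcrc1 (clone 381) was not listed on a treated array. The clones of Uqcrb, Uqcrc2 and Uqcrh were not listed either.

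In complex IV both clones in the fit went opposite ways on different arrays. Cox7a2 (clone 14853), the isoform of a small subunit found in most tissues, had log2 ratios of 0.08 and 0.02 in the control pairs, 0.68 in dexamethasone pair 1 and -0.90 in pair 2, which gives a limma difference of -0.16 (SE 0.60, adjusted p 0.953). Its intensities were 2326 and 3346 in control pair 1 and 6733.5 and 5916 in control pair 2, but only 436 and 681 in dexamethasone pair 1 and 755 and 322 in dexamethasone pair 2. The clone was thus dimmer in both dyes on the treated arrays that listed it. The dim clone of Cox8a (clone 4704), a small subunit, had 0.32 and 0.18 in the control pairs, -1.33 in dexamethasone pair 1 and 0.91 in pair 3, a limma difference of -0.46 (SE 0.83, adjusted p 0.862). The bright clone of Cox8a was listed once, at -0.50 in dexamethasone pair 1. Of the 4 clones of Cox4i1, clone 2460 was listed at 0.76 in dexamethasone pair 2 and had 0.11 and 0.75 in the control pairs, clone 3953 was listed at 0.28 in dexamethasone pair 3, and the other two were not listed. Cox6b2 (0.75) and Cox6c (0.65) were listed once each, in dexamethasone pair 2.

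Complex V had 3 clones in the fit. Atp5a1 (clone 15334) had log2 ratios of -0.07 and 0.08 in the control pairs, and -0.75 and -0.47 in dexamethasone pairs 2 and 3. Both treated values lay below both control values, and the limma difference of -0.62 (SE 0.22) had the lowest p of the 9, 0.0522 unadjusted and 0.196 adjusted. Its intensities were 693 and 608.5 in control pair 1, 4045.5 and 3829 in control pair 2, 15346 and 10558 in dexamethasone pair 2, and 8849 and 6295.5 in dexamethasone pair 3. Other clones of the gene gave the opposite sign or no value. Clone 12405 was listed at 0.67 in dexamethasone pair 1 (0.32 and 0.18 in the control pairs), clone 15174 at 0.68 in dexamethasone pair 2 (-0.04 and 0.29 in the control pairs), and clone 14302 was not listed. In dexamethasone pair 2, clones of Atp5a1 were thus listed in both directions on 1 array.

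Atp5b (clone 8362) had log2 ratios of 0.61 and 0.66 in the control pairs, and 0.59 and 0.49 in dexamethasone pairs 1 and 3. The clone was as high with control RNA in both dyes as with treated RNA in Cy5, and the limma difference was -0.10 (SE 0.19, adjusted p 0.882). Only spot 2 of the clone was listed on the treated arrays, and that spot had 0.53 and 0.56 in the control pairs. For the same spot, the treated ratios thus lay on both sides of the control ratios. Of the other clones of Atp5b, clone 1951 was listed at -0.62 in dexamethasone pair 2 (-0.57 and 0.30 in the control pairs), and clone 15187 at -0.50 in dexamethasone pair 3 (0.13 and 0.49 in the control pairs), from both spots. The dim clone of Atp5g3 (clone 13872) had -0.07 and 0.47 in the control pairs, and 0.74 and 1.05 in dexamethasone pairs 1 and 2. Both treated values lay above both control values, and the limma difference of 0.70 (SE 0.30, adjusted p 0.226) was the highest of the 9. Its intensities on the treated arrays were low, 125 and 185 in dexamethasone pair 1 and 305 and 435 in dexamethasone pair 2, and the bright clone of Atp5g3 (clone 9400) was not listed. None of the 3 clones of Atp5c1 was listed.

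**Figure D5:**
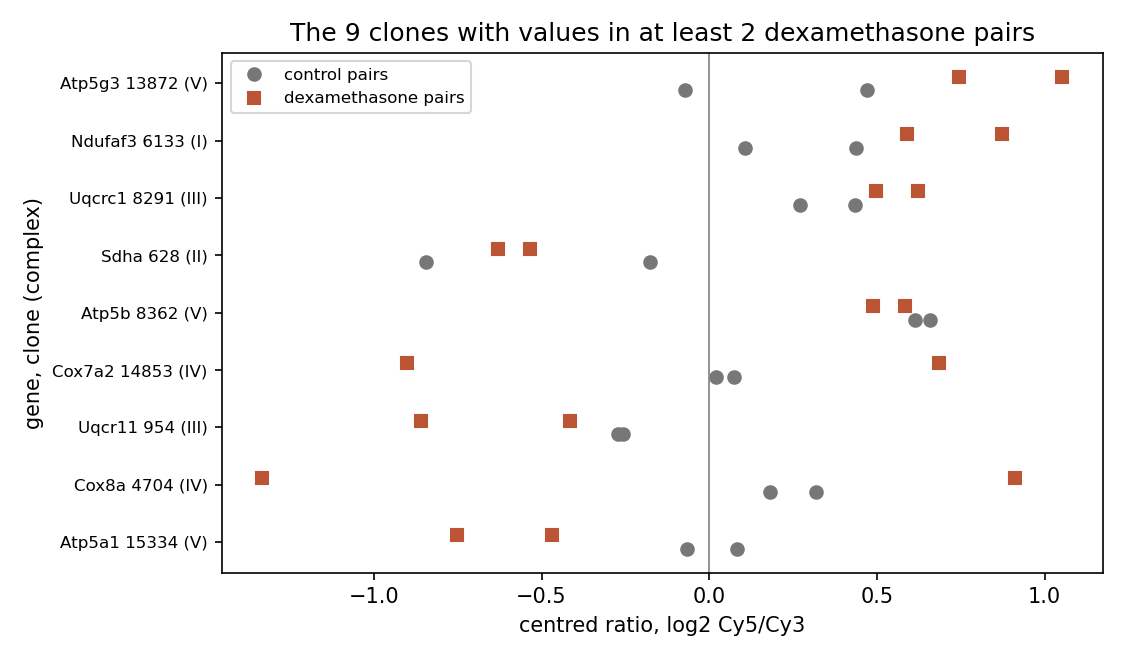
Centred log2 ratio of Cy5 to Cy3 (horizontal axis) of the 9 clones with values in at least 2 dexamethasone pairs, 1 row per clone, ordered by the limma difference. Grey circles are the 2 control pairs and red squares the dexamethasone pairs: the squares lie above both circles for Atp5g3, Ndufaf3 and Uqcrc1, below both for Atp5b, Uqcr11 and Atp5a1, and overlap or straddle them for the other three. Each point is a mean over the spots of the clone with a value, and these spots differ between pairs.

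The listed spots of complex V came largely from 1 array. In dexamethasone pair 3, 8 of its 58 spots were listed higher and 4 lower (20.7% in all), against 4 and 0 in pair 1 and 2 and 3 in pair 2. The clones higher in pair 3 were Atp5md (0.41, both spots), both clones of Atp5o, the peripheral stalk subunit that confers oligomycin sensitivity (0.46 and 0.44), both clones of Atp5l, subunit g (0.44 and 0.35), 1 of 2 clones of Atp5pb, the peripheral stalk subunit b (0.37), and Atp5b clone 8362. The lower spots were both spots of Atp5b clone 15187 and of Atp5a1 clone 15334. The clone of Atp5md had -0.24 and -0.34 in the control pairs, and those of Atp5o had -0.10 and 0.16 for clone 4122 and 0.00 and 0.26 for clone 6714. Of Atp5l, clone 4050 had 0.25 and 0.66, which holds its treated ratio between them, and clone 4128 had -0.17 and -0.09, while the clone of Atp5pb had 0.00 and 0.24. None of these 8 higher spots was repeated on a second treated array except through Atp5b clone 8362, also listed in pair 1. Without dexamethasone pair 3, complex V had 6 higher and 3 lower, and all 87 clones had 17 and 14. In control pair 2, 8 spots of complex V were outlying higher, as many as in dexamethasone pair 3, and 1 was lower.

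Other genes of mitochondrial energy metabolism were described by 4 lists of genes of known role. Assembly factors of the complexes outside the prefixes had 22 clones of 18 of 38 genes, with 6 spots listed higher and 7 lower on the treated arrays (9.85% of spots, where all clones had 12.6%) and 7 and 3 in the control pairs. Electron carriers and exchangers had 19 clones of 14 of 19 genes, with 5 higher and 10 lower (13.2% of spots) against 5 and 2 in the control pairs. A clone of Slc25a20, the carnitine carrier (clone 6222), had ratios of -0.52 and -0.70 on 2 arrays (limma difference -0.60, adjusted p 0.194), while its other clone (5895) was listed higher, at 0.71, in dexamethasone pair 2, the array on which clone 6222 was at -0.70. Slc25a10, the dicarboxylate carrier, had -0.49 and -1.06 (limma difference -0.79, adjusted p 0.193). Pyruvate dehydrogenase and the citric acid cycle had 30 clones of 17 of 19 genes, with 12 higher and 6 lower (10.0% of spots) against 7 and 4. A clone of Ogdh, of the oxoglutarate dehydrogenase complex, had 0.59 and 0.62 (limma difference 0.77, adjusted p 0.187), and its other clone was not listed. Mitochondrial transcription and its regulators had 17 clones of 12 of 17 genes, with 9 higher and 8 lower (16.7% of spots) against 3 and 6. Pprc1, a coactivator that acts with NRF-1, had 0.62 and 0.40 (limma difference 0.48, adjusted p 0.259). In limma 0 clones of these 4 lists passed the adjusted threshold in either direction, with 10 of their clones fitted. The other fitted clones, of Atpaf2, Cox16, Dld, Tfb2m, Nrf1 and Ppargc1b, each had listed spots in both directions (limma adjusted p 0.831 to 0.983). Over all clones, 4.21% were listed on at least 2 treated arrays with all spots higher and 4.2% with all lower.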

How the data were processed

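The authors deposited 1 linear spot intensity per spot and channel, read in Imagene 4.0 per the series' design text. For background correction, normalisation and the rule by which treated arrays list spots, the method is not given in the sources used here. Channels were paired by the number in their titles. Checked in the data, the blank spots of a control pair were common to its channels (178 and 258 spots), while the pairs had 3 in common, and log2 intensities within the 5 pairs correlated at r = 0.933, 0.927, 0.879, 0.822 and 0.912, against 0.459 to 0.789 between control and treated arrays and 0.619 to 0.833 between different treated arrays, which reaches above the lowest value within a pair. The pairing within an array is held by the ratio itself.

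Log2 ratios of Cy5 to Cy3 were centred along intensity, by lowess (span 0.2, statsmodels 0.14.6) in the control pairs. On the treated arrays they were centred on the midpoint of the empty band between higher and lower ratios. In windows of 150 spots, the band was the widest gap between the 20th and 80th percentiles of the ratios in the window. Its midpoints were smoothed with a span of 0.3. Spots of a clone were averaged. The ratios of treated and control pairs were compared with limma 3.58.1 (R 4.3.3) over all 2131 clones with values in both control pairs and at least 2 treated pairs, p-values being adjusted by Benjamini-Hochberg over all of them (threshold 0.05). The fit was also run on simulated normal ratios with the real pattern of missing values. Those ratios were not restricted to outlying ones as on the treated arrays, so the run cannot show how the fit behaves under that restriction. Channel medians ran from 327 to 1076. No count test was used.

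Clones were named through the array's annotation, which has a row for 10140 of 15600 clones, 9866 of them with 1 symbol and 274 with several. Clones named are those listed on at least 2 treated arrays, the brightest and the dimmest clone of each complex, genes with 3 or more clones, all Sdh clones and, of the other lists, genes listed on at least 2 treated arrays with all spots on 1 side; clones listed once are named as further examples. Members, lists and rules were chosen with earlier results of these data known. Alternatives changed the centring, the clones fitted, the model, the filter on dim clones, the value added before log2 (50) and the pairs used.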

Additional observations from a re-analysis of the deposited data

How the results depend on the processing

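Of 135 recomputed differences of the 9 fitted clones, 108 kept their direction and 27 reversed, and none passed the threshold. These counts do not measure stability. A change of the clones fitted, or leaving out a treated pair without a value for the clone, returns the main difference by construction. The fit of channels apart and that of the Cy5 channels alone give the same differences, so their reversals are counted again. The pairing of the dyes decided most: with the channels fitted apart and no replicate block, the limma differences were -0.34 for Ndufaf3, 0.33 for Sdha, 1.66 for Uqcr11, -0.20 for Uqcrc1, 2.42 for Atp5a1, 0.74 for Atp5b and -0.40 for Atp5g3, and they were the same with the Cy5 channels alone. Under a random replicate block for the pair, Sdha was at 0.19, Uqcr11 at 0.54, Atp5a1 at 0.81, Atp5b at 0.28 and Atp5g3 at -0.033. With the spread of the pairs scaled, Ndufaf3 was at -0.10, Sdha at 0.79, Uqcr11 at 0.23 and Uqcrc1 at -0.47. Atp5b was at 0.12 with no normalisation. Leaving out each pair in turn, Sdha ran from -0.41 to 0.26 (without control pair 1), Cox7a2 from -0.95 to 0.64 (without dexamethasone pair 2) and Cox8a from -1.58 to 0.66 (without dexamethasone pair 1). The cause was not tested. Over all clones, limma called 9 higher and 4 lower of 92 with values from both spots, and 0 higher and 1 lower with clones valued in all 5 pairs, with clones valued on any treated array, with median centring and without dexamethasone pair 1; leaving out each pair gave 0 to 0 higher and 0 to 1 lower. All other settings, the fits with and without a replicate block among them, gave 0.

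Counts of listed spots shrank with the spots used. With 1 clone per gene, the brightest, 20 spots of the members were listed higher and 16 lower. In the control pairs 9 were outlying higher and 9 lower, so the lean to higher was absent there. On the treated arrays complex III then had 0 higher and 4 lower, and complex V had 6 and 5. With both spots of a clone required, members had 4 higher and 10 lower, against 8 and 4 in the control pairs. The lean to higher on the treated arrays thus turned, though on few clones. Complex I had 2 and 0, IV 0 and 2, V 2 and 4, and II had 0 lower and III 0 higher. Leaving out each treated array gave 17 to 24 higher and 11 to 14 lower for the members (17 without dexamethasone pair 3, 11 without pair 2), 6 to 8 and 1 to 2 for complex I, 0 to 0 and 1 to 2 for II, 1 to 2 and 2 to 4 for III, 3 to 5 and 2 to 4 for IV, and 6 to 12 and 3 to 7 for V. Median brightness as a mean of percentiles was 77.9, 81.7, 86.5, 81.0 and 86.1 for complexes I to V, which puts II, III and V above IV, so complex IV moves from the highest to the fourth. Complex II was at 91.2 with Cy3 and 89.0 with Cy5 alone, and IV at 93.9, 94.8 and, with 1 clone per gene, 95.6. Leaving out a control pair gave 84.3 to 88.2 for I, 89.0 to 89.4 for II, 91.8 to 93.4 for III, 94.4 to 95.4 for IV and 92.4 to 94.9 for V. Background signal was not used here, so which dim clones exceed it was not tested, and the number of arrays limits the precision of the rest.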

Other observations

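Glycolysis, the cytosolic route from glucose to pyruvate and lactate, was bright. Its 18 clones of 12 genes had a median percentile of 96.9, with Gapdh (clone 7531), the glyceraldehyde phosphate dehydrogenase, at 99.2. On the treated arrays 17 of their spots were listed higher and 6 lower (21.3% of spots, where 12.6% of all spots and 11.7% of those of the brightest 25% of clones were listed), against 4 and 2 outlying in the control pairs. The higher spots came from dexamethasone pairs 1 (9 higher, 0 lower) and 2 (8 higher, 3 lower), and pair 3 had 0 higher and 3 lower. In dexamethasone pair 1 the brightest 25% of all clones had 618 spots listed higher and 268 lower, in pair 2 it had 500 and 416, and in pair 3 it had 425 and 506.

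Of the 18 glycolysis clones 4 were listed higher on 2 arrays with no lower spot. The share of all clones listed on at least 2 treated arrays with all spots higher was 4.21%. No such share is given for clones as bright as these. The 4 were all listed in dexamethasone pairs 1 and 2, where bright clones in general had more higher than lower spots. Pfkm, a phosphofructokinase, had log2 ratios of -0.06 and -0.37 in the control pairs and 0.89 and 0.93 in dexamethasone pairs 1 and 2 (limma difference 1.13, adjusted p 0.187). Aldoc, an aldolase, had 0.16 and 0.24, then 0.67 and 1.12 (limma difference 0.69, adjusted p 0.196). Ldhb, a lactate dehydrogenase, had 0.23 and 0.36, then 0.82 and 0.56 (limma difference 0.40, adjusted p 0.309). Gapdh clone 7531 had 0.22 and -0.36, then 0.40 and 1.31 (limma difference 0.93, adjusted p 0.257), while Gapdh clone 12722 was not listed and clone 15297 had 1 spot listed lower, at -0.31 in pair 3. None passed the adjusted threshold in limma. Other glycolysis clones of the same gene disagreed in dexamethasone pair 2, where Pkm clones 14684 and 14523 were at 0.70 and -0.67. Pfkl clones 6866 and 11105 were at 0.61 and -0.90 there.

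Among marker genes, the anion exchanger Slc4a1 had log2 ratios of 0.69 and 0.93 in dexamethasone pairs 1 and 2 and 0.28 and -0.19 in the control pairs (limma difference 0.76, adjusted p 0.193). A clone of Dcn at the 86.5th percentile of brightness had 0.92 and 0.49 in dexamethasone pairs 2 and 3 and 0.02 and 0.30 in the control pairs (limma difference 0.55, adjusted p 0.267), and the other clone of Dcn was not listed. The clone of Cox7a2 lay at the 95.9th percentile of the control arrays. Its 1 listed spot in dexamethasone pair 1 ranked at the 67.2nd percentile of the listed spots. By brightness on the control arrays that spot ranked at 96.5 among the same listed spots. In dexamethasone pair 2 its spots ranked at 50.7 and 60.4, against 97.0 and 96.9 by their brightness on the control arrays.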
